A study of Homo sapiens with 9 samples.

Results

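The comparison described here sets HCC4006 cells given gefitinib and a TGFβ receptor inhibitor against HCC4006 cells given gefitinib alone. It uses 6 of the 9 arrays of the study, chosen by their titles. HCC4006 is an established human lung adenocarcinoma line with a mutant epidermal growth factor receptor gene (EGFR), and all 9 arrays carried total RNA of this 1 line. The inhibitor group (3 arrays) is titled as resistant to gefitinib and treated with a TGFBR inhibitor. The series design gives it 6 months of rising gefitinib combined with SB431542, which inhibits the kinases of the TGFβ type I receptor and of related activin receptors. The titles can also be read as cells that were already resistant when SB431542 was given, and the labels do not settle which was done. The resistant group (3 arrays) had gefitinib, an EGFR kinase inhibitor, for the same 6 months and no SB431542. The parental group (3 arrays) was not selected. It enters the text only to show where a level lay before selection, and it shares in the estimate of spread.

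The labels do not say whether replicates were separate cultures, so the spread behind each p-value is that between arrays and may be technical. They do not say whether either compound was present at harvest. No group had SB431542 alone, and the labels name none that was kept for 6 months without gefitinib. The effect of SB431542 can therefore not be told apart from that of a separate selection, and the text speaks only of the difference between the groups. These are bulk samples, in which fewer cells of a type and less RNA per cell cannot be told apart.

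Transforming growth factor β (TGFβ) ligands bind a complex of type II and type I receptor kinases, which phosphorylates SMAD2 and SMAD3. With SMAD4 these enter the nucleus and change the transcription of genes for matrix, adhesion and cell cycle control. Bone morphogenetic proteins (BMPs) use a parallel route through SMAD1, SMAD5 and SMAD9, whose best known targets are the ID genes. In carcinoma cells TGFβ is known for epithelial-mesenchymal transition, in which cells lose E-cadherin junctions and gain contractile and matrix genes.

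Values are the deposited intensities, 1 per gene and array, on a linear scale that still holds the background. Olfactory receptor genes, taken to be silent here, gave a level to stand for background. Their 372 rows had a 95th percentile of 92.6, and a fold change is understated where 1 group lies near it. Values above 5549, the 99th percentile of all values, may be compressed. A change is the inhibitor minus the resistant group mean on the log2 scale, given ± SE with the limma p-value adjusted over all 30672 genes. A gene was called, and is said to have risen or fallen, at an adjusted p under 0.05. Parental levels are means ± SD (n = 3).

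The array medians lay between 91.1 and 91.3. Inhibitor replicate 2 stood apart, with correlations of 0.990 to 0.991 to the other arrays of its group. In it 39 genes lay at least 2-fold above and 15 at least 2-fold below the mean of those arrays, against 0 and 3 in inhibitor replicate 1 and 0 and 3 in inhibitor replicate 3. All 9 markers of lung adenocarcinoma epithelium lay above background in every group. Their summed level was 23888 to 29204 in the inhibitor group, 8705 to 8842 in the resistant group and 19008 to 21703 in the parental group. NAPSA, the pneumocyte protease napsin A, was close to background with and without the inhibitor at 94.2 and 98.8, against 1002 in parental cells. NKX2-1, another of the 9, was not called, with means of 155 with the inhibitor and 180 in the resistant group, against 409 in parental cells. Of 12 leukocyte markers, 4 had a group mean above background with the inhibitor and 3 in the resistant group, with CD68 the brightest, and PTPRC and CD3D lay within background in both. Of 10 endothelial markers, 2 had a mean above background with the inhibitor and 0 in the resistant group, and VWF and CDH5 lay within background in both.

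Of the 30672 genes, 2664 (8.69%) rose with the inhibitor and 2704 (8.82%) fell. Of these, 324 (1.06%) were higher and 223 (0.727%) lower by at least 2-fold. Without inhibitor replicate 2, 2653 genes (8.65%) were higher and 2709 (8.83%) lower. The median change over all genes was -0.0008, and 5% of genes lay below -0.40 and 5% above 0.40. Among the 15695 genes above background in either group, 16.5% rose and 16.9% fell. The counts of the 54 gene lists used below are in the plot of list shares, and some lists, such as the WNT and DNA replication lists, lay near these shares in at least 1 direction. Each list count below is to be read beside these shares. Among the 54 lists, chosen with earlier results of these data known, epithelial regulators had the highest share of members called higher. In every gene said below to have risen or fallen, the 2 groups of arrays did not overlap, except in COL7A1, CXCL8 and CD68. Over all genes, 14.7% had all inhibitor arrays above and 15.3% all below the resistant arrays. When the background was subtracted first, some genes that were called in every other setting were not (adjusted p 0.0544 to 0.156). Among the genes described here these are NSDHL, TCF4, MSN, NT5E, COL4A2, ITGA5, IFITM3, OASL, HLA-DMA, MET, FOSL1, JUNB, CDC20, BCL2L1, SCD, ESAM and DDC.

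**Figure D1:**
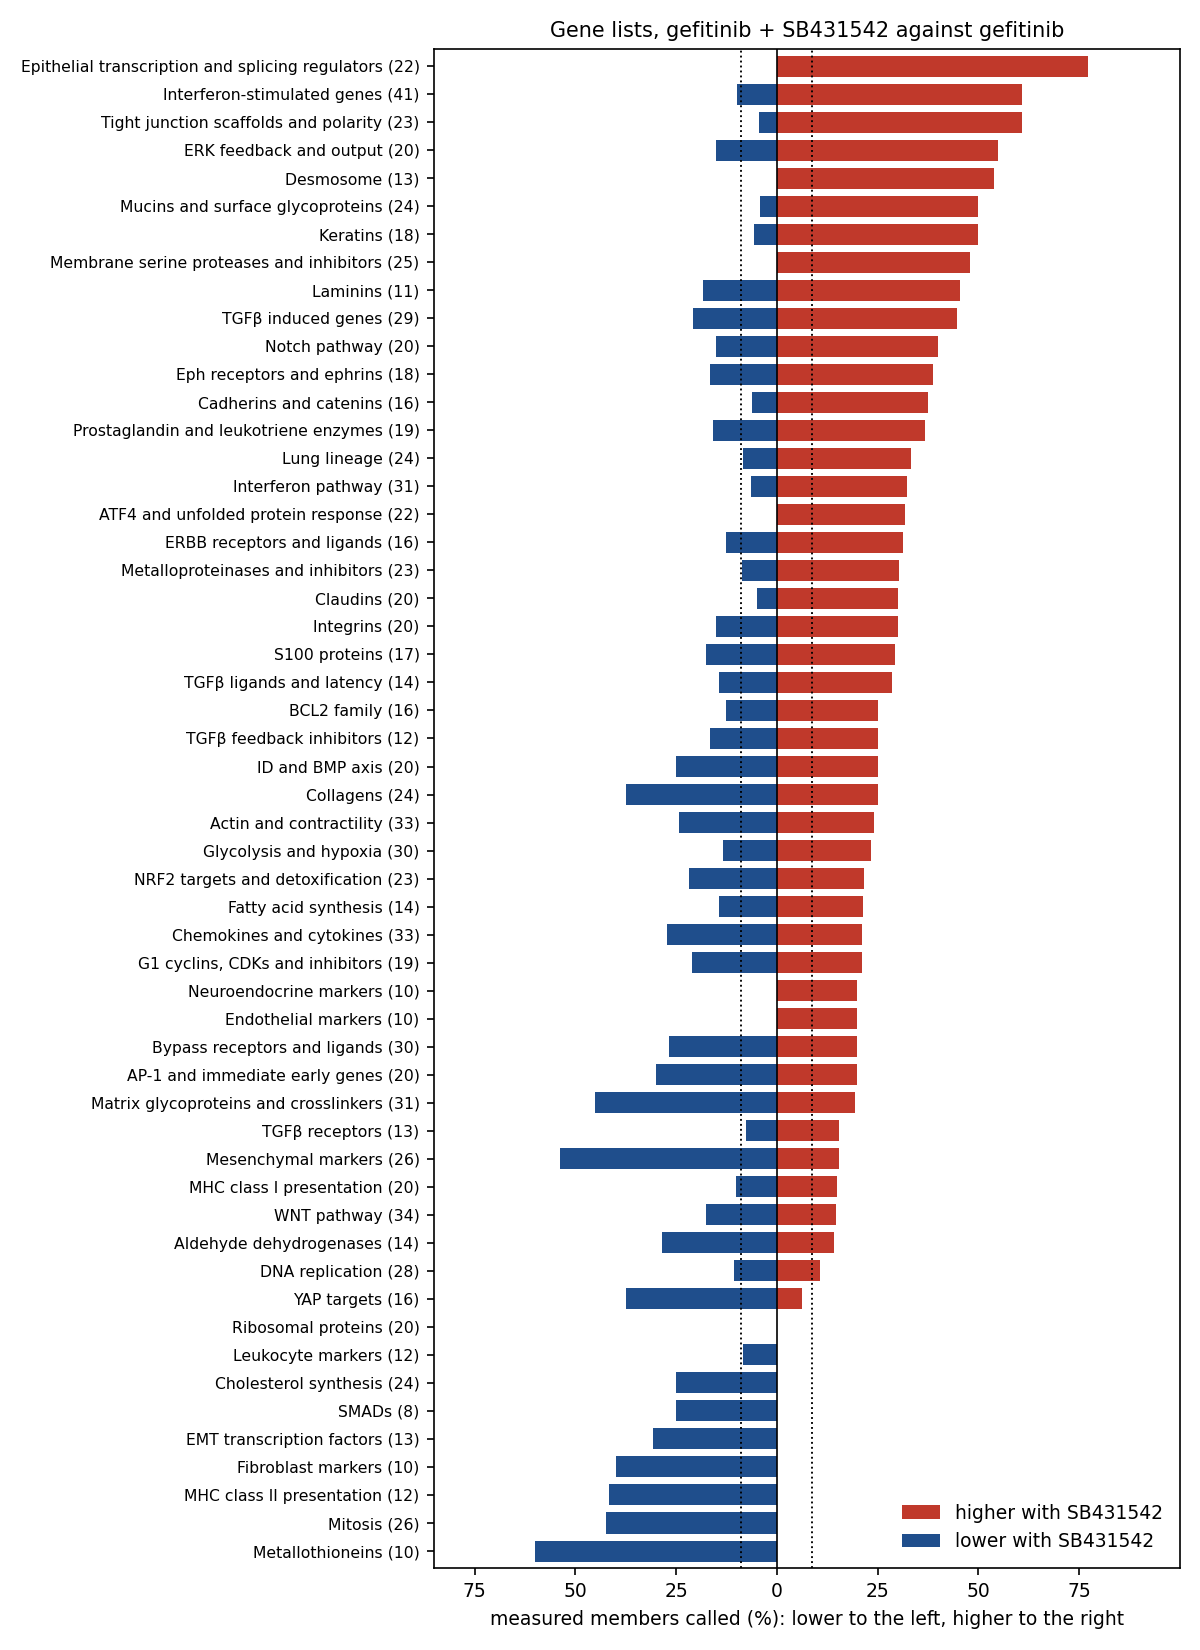
Share of each gene list called higher (right, red) or lower (left, blue) in the inhibitor group than in the resistant group, in percent of the measured members, whose number is in parentheses. The dotted lines mark the shares over all genes, 8.69% higher and 8.82% lower. Lists of epithelial genes and interferon-stimulated genes extend to the right. Lists of metallothionein, mesenchymal, matrix glycoprotein, mitotic and MHC class II genes extend to the left.

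With the inhibitor, transcripts of the type II receptor and of some ligand and latency protein genes were higher, while most SMAD transcripts were not called. Of 14 genes for ligands and their latency proteins, 4 rose and 2 fell, and of 13 receptor genes 2 rose and 1 fell, where 8.69% and 8.82% of all genes did. Among the 9 receptor genes above background in either group, 2 rose and 1 fell, where 16.5% and 16.9% of all such genes did. TGFBR2, the type II receptor that starts the phosphorylation chain, read 1769, 1808 and 1761 in the inhibitor group, against 924, 876 and 888 in the resistant group. The inhibitor arrays were close together and all far above the resistant arrays. TGFBR2 rose by 0.99 ± 0.10 (adjusted p = 6.73e-07) and also exceeded the parental level of 902 ± 52.5 by 0.98 ± 0.10. LTBP2, which binds the extracellular matrix and is related to the proteins that hold latent TGFβ, read 341, 365 and 365 in the inhibitor group, against 173, 134 and 152 in the resistant group. The 2 groups did not overlap, and the gene rose by 1.23 ± 0.09 (adjusted p = 3.75e-09). INHBB, a subunit of activin and inhibin, read 316, 294 and 311 in the inhibitor group, against 152, 151 and 164 in the resistant group, a rise of 0.98 ± 0.10 (adjusted p = 3.16e-07). LTBP3, which holds latent TGFβ in the secretory pathway, rose by 0.89 ± 0.14. Its inhibitor values were 287, 477 and 288, with replicate 2 well above the others, and the rise was 0.65 without that array.

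TGFB2 was the ligand gene of the TGFβ subfamily with a clear signal. It read 282, 256 and 278 in the inhibitor group, against 193, 223 and 198 in the resistant group, without overlap, and rose by 0.41 ± 0.10 (adjusted p = 0.00459). TGFB1 stayed within background on every array (81.9, 89.3 and 82.7 with the inhibitor and 87.0, 82.2 and 84.0 without it). TGFB3 lay just above it at 93.2, 106 and 97.9 with the inhibitor and 97.6, 95.8 and 99.2 without it, and neither was called. TGFBR1, the kinase that SB431542 blocks, was also near background, at 93.6, 90.2 and 88.5 with the inhibitor and 99.2, 93.5 and 90.9 without it (change -0.06 ± 0.04, adjusted p = 0.469). The BMP receptor gene BMPR2 rose by 0.63 ± 0.11, and TGFBR3, a co-receptor for TGFB2, fell by 0.36 ± 0.09. The call was lost without resistant replicate 3 (over 19 alternatives, adjusted p values of 0.00218 to 0.0617). ENG, an accessory receptor, was not called with all arrays, but without inhibitor replicate 2 it was lower (adjusted p = 0.00141, range over 19 alternatives 0.00141 to 0.965).

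Transcripts of the signal carriers were nearly level. SMAD3 read 520.3, 639 and 546 in the inhibitor group, against 549, 517 and 539 in the resistant group, and the groups overlapped (change 0.08 ± 0.12, adjusted p = 0.739). SMAD2 and SMAD4 changed by 0.05 and -0.15 and were not called. SMAD7, the inhibitory SMAD that TGFβ induces as feedback, read 201, 225 and 194 in the inhibitor group, against 177, 183 and 210.1 in the resistant group, again overlapping (change 0.12 ± 0.09, adjusted p = 0.425). SMAD1 and SMAD5, the BMP carriers, fell by 0.15 and 0.32, the 2 calls among 8 SMAD genes. The SMAD1 call was lost without inhibitor replicate 1 or resistant replicate 1 or 2 (over 19 alternatives, adjusted p values of 0.011 to 0.134). The SMAD5 call was lost without inhibitor replicate 1 or 3, resistant replicate 1, 2 or 3 or parental replicate 2 or 3 (over 19 alternatives, adjusted p values of 0.00137 to 0.179). Among 12 feedback inhibitors, 3 rose and 2 fell. PMEPA1, which keeps receptor-activated SMADs from the receptor, read 4812, 4450.0 and 4658 in the inhibitor group, against 1628, 1431 and 1601 in the resistant group. It rose by 1.58 ± 0.10 (adjusted p = 8.53e-10) and lay 1.09 ± 0.10 above parental. BAMBI, a decoy receptor without kinase, fell by 0.46 ± 0.11, and SKIL, a nuclear SMAD co-repressor, rose by 0.26 ± 0.06.

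Genes that TGFβ is known to induce moved both ways, with more rises than falls. Of 29, 13 rose and 6 fell, with a median change of 0.06. The median was 0.19 among the 25 above background in either group. COL5A1, a fibrillar collagen chain, read 1509, 1015 and 1696 in the inhibitor group, against 3224, 2904 and 3501 in the resistant group, and fell by 1.22 ± 0.15 (adjusted p = 8.27e-06). RHOB, a small GTPase of the actin cytoskeleton, read 604, 865 and 620.0 in the inhibitor group, against 1073, 1095 and 1169.9 in the resistant group, and fell by 0.70 ± 0.14 (adjusted p = 0.00108). The collagen gene COL1A2 and the contractile gene TAGLN also fell. THBS1, the matrix protein thrombospondin, which can release latent TGFβ, read 2968, 4342 and 3021 in the inhibitor group, against 1223, 1190.2 and 1213 in the resistant group and rose by 1.49 ± 0.14 (adjusted p = 1.16e-07). ADAM19, a membrane metalloproteinase, read 998, 1019 and 943 in the inhibitor group, against 829, 857 and 627 in the resistant group, where parental cells averaged 140.3. Its rise of 0.37 ± 0.12 (adjusted p = 0.0471) was lost without inhibitor replicate 1 or 3, resistant replicate 1 or 3 or parental replicate 1, 2 or 3 (over 19 alternatives, adjusted p values of 0.0278 to 0.288).

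**Figure D2:**
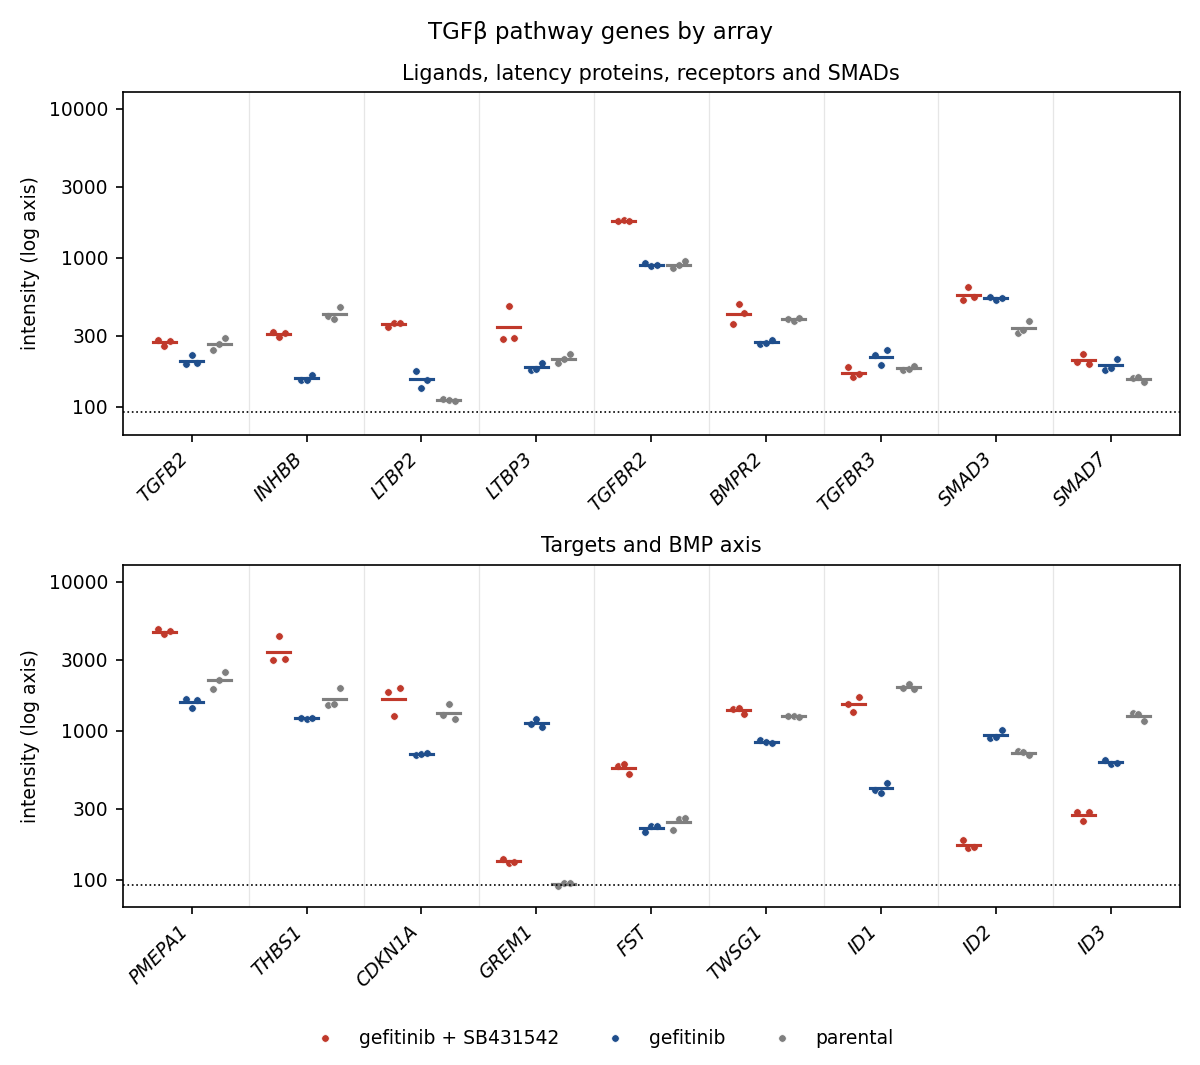
Intensity (log axis) of TGFβ pathway genes on each array, with the inhibitor group left, the resistant group in the middle and the parental group right for each gene. Points are single arrays, bars are group means on the log scale, and the dotted line is the background stand-in of 92.6. TGFBR2 and PMEPA1 stand above both other groups with the inhibitor, and ID2 and ID3 stand below both.

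The ID genes, which encode inhibitors of basic helix-loop-helix factors, did not move together. ID2 read 185, 162 and 165 in the inhibitor group, against 895, 906 and 1010.4 in the resistant group, a fall of 2.46 ± 0.11 (adjusted p = 4e-12). ID3 read 283, 246 and 286 in the inhibitor group, against 633, 600.3 and 609 in the resistant group and fell by 1.18 ± 0.11 (adjusted p = 1.81e-07). Both were also below their parental levels of 710.2 ± 18.8 and 1261 ± 80.6. ID1 went the other way, at 1509, 1342 and 1696 in the inhibitor group, against 401, 382 and 448 in the resistant group, a rise of 1.88 ± 0.12 (adjusted p = 4.94e-10) towards the parental 1973 ± 69.6. ID4 read 106, 124 and 103 in the inhibitor group, against 88.5 to 94.2 in the resistant group, near background, with a parental level of 303 ± 46.8. Its rise of 0.29 ± 0.09 (adjusted p = 0.0385) became 0.20 without inhibitor replicate 2 (adjusted p = 0.128). Its adjusted p lay at 0.00669 to 0.156 in the 19 alternatives. The inhibitor and resistant arrays did not overlap in any of these genes. GREM1, a secreted BMP antagonist, read 138, 129 and 131 in the inhibitor group, against 1113, 1190.2 and 1063 in the resistant group, a fall of 3.08 ± 0.09 (8.45-fold, adjusted p = 6.33e-15). FST, the activin antagonist follistatin, read 583, 597 and 515 in the inhibitor group, against 210.2, 228 and 231 in the resistant group and rose by 1.34 ± 0.10 (adjusted p = 1.41e-08). TWSG1, a BMP-binding protein, rose by 0.70 ± 0.10.

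Transcripts of the regulators of epithelial identity were higher with the inhibitor. Of 22 such genes, 17 rose and 0 fell, with a median change of 0.66 against -0.0008 over all genes. OVOL2, a zinc-finger repressor of ZEB1, read 998, 672 and 932 in the inhibitor group, against 177, 156 and 165 in the resistant group and rose by 2.37 ± 0.13 (adjusted p = 1.42e-10). The ETS factor EHF read 975, 1002 and 995 in the inhibitor group, against 238, 238 and 259.8 in the resistant group and rose by 2.02 ± 0.13, still 0.58 ± 0.13 below parental. These 2 genes are among the strongest responders of the list, and replicate 2 was the lowest inhibitor array in OVOL2. FOXA2, a forkhead factor of endoderm, read 649, 683 and 740.1 in the inhibitor group, against 199, 174 and 203 in the resistant group and rose by 1.85 ± 0.11. TP63, the basal cell factor, read 533, 478 and 507 in the inhibitor group, against 161, 173 and 169 in the resistant group and rose by 1.59 ± 0.09. SPDEF, a secretory cell factor, rose by 1.56 ± 0.16 and ELF3 by 1.27 ± 0.11 (adjusted p = 7.65e-07 for SPDEF).

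Of 13 transcription factors of epithelial-mesenchymal transition, 0 rose and 4 fell. ZEB2, which represses E-cadherin, read 84.2, 90.1 and 87.6 in the inhibitor group, against 161, 193 and 162 in the resistant group. It was within background on all inhibitor arrays and fell by 0.98 ± 0.06 (adjusted p = 1.28e-09). TWIST1, a basic helix-loop-helix factor of mesoderm, read 189, 185 and 183 in the inhibitor group, against 283, 319.9 and 281 in the resistant group and fell by 0.66 ± 0.07, while staying 1.04 ± 0.07 above parental. PRRX1 and TCF4 fell by 0.42 and 0.19 from resistant levels of 113 and 105, close to background. SNAI2, a repressor of E-cadherin with a clear signal in all groups, read 504, 588 and 409.7 in the inhibitor group, against 466, 489 and 435 in the resistant group, with overlap (change 0.10 ± 0.13, adjusted p = 0.705). SNAI1 (91.0, 87.2 and 83.8 with the inhibitor and 83.5, 85.6 and 87.2 without it) and ZEB1 (85.0, 82.6 and 82.9 with the inhibitor and 85.9, 89.8 and 90.8 without it) stayed within background. PRRX2, at 318, 194 and 354 with the inhibitor and 262, 246 and 255 without it, was called higher only without inhibitor replicate 2 (adjusted p = 0.00457, range over 19 alternatives 0.00457 to 0.935).

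Among junction genes more were called higher than lower, and most claudin genes and most cadherin and catenin genes were not called. Tight junction scaffold and polarity genes counted 14 higher and 1 lower of 23, and desmosome genes 7 higher and 0 lower of 13. Claudin genes counted 6 higher and 1 lower of 20, and cadherin and catenin genes 6 higher and 1 lower of 16. RAB25, a small GTPase of apical recycling, read 1758, 1979 and 1629.7 in the inhibitor group, against 325, 346 and 316 in the resistant group, a rise of 2.44 ± 0.11 (adjusted p = 7.13e-12). CRB3, which sets up the apical membrane, read 397, 382 and 415 in the inhibitor group, against 160.0, 158 and 169 in the resistant group, a rise of 1.29 ± 0.10 (adjusted p = 8.93e-09). CGN, the scaffold cingulin, and F11R, the adhesion molecule JAM-A, rose by 1.38 ± 0.15 and 1.21 ± 0.11. MPDZ, a multi-PDZ scaffold, was the member that fell, by 0.39 ± 0.07. Desmoplakin (DSP), which ties desmosomes to keratin, read 249, 273 and 274 in the inhibitor group, against 109, 103 and 112 in the resistant group, a rise of 1.29 ± 0.07 (adjusted p = 1.9e-10).

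The ZEB, SNAI and TWIST factors bind E-boxes, and 3 junction genes that rose have the letters CACCTG, or CAGGTG on the other strand, near their start. The promoters of these 3 are printed to show where those letters lie. Sequences are RefSeq, build GRCh38.p14, from 250 bases before to 50 bases after the start, with the matches in capitals. CRB3 (chr19:6464021-6464320, plus strand) has 5 matches, RAB25 (chr1:156060910-156061209, plus strand) has 2 and DSP (chr6:7541421-7541720, plus strand) has 2.
CRB3: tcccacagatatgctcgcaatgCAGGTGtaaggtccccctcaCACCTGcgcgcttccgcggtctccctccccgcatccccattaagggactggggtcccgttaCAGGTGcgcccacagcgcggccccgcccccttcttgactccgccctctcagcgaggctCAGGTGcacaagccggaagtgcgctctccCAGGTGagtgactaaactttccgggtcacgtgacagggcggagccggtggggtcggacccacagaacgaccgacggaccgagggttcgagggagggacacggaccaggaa
RAB25: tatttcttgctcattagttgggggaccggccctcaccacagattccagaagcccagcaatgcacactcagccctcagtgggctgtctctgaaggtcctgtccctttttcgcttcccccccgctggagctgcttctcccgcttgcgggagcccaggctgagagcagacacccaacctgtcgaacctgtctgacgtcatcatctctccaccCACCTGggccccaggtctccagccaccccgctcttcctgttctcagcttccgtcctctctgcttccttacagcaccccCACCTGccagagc
DSP: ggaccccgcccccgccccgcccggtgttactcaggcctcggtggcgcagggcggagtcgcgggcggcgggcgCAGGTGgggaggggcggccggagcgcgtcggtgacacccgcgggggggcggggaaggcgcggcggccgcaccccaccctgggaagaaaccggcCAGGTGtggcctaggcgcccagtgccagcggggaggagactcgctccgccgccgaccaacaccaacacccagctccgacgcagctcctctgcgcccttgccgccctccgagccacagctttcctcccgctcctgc

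The motif is common. It was in 20.6% of all 27305 promoters in the table, and in 9 of the 30 promoters found for the 58 members of the epithelial regulator, junction and keratin lists that rose. It was also in 12 of the 31 promoters found for the 49 members that were not called. A match describes these letters only.

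Claudin genes differed in direction. CLDN7, which seals epithelial tight junctions, read 1673, 1957 and 1715 in the inhibitor group, against 277, 298 and 327 in the resistant group, a rise of 2.57 ± 0.11 (adjusted p = 3.58e-12) with a parental level of 1760.5 ± 13.8. CLDN1, another epithelial claudin, read 2398, 2126 and 2446 in the inhibitor group, against 955, 863 and 901 in the resistant group and rose by 1.36 ± 0.12 (adjusted p = 5.76e-08). CLDN11, known from myelin and Sertoli cell junctions, read 252, 231 and 232 in the inhibitor group, against 2184, 2076 and 2052 in the resistant group, a fall of 3.14 ± 0.10 (8.83-fold, adjusted p = 6.97e-14). The groups did not overlap in any of these 3. CLDN10, a pore-forming claudin, rose by 0.59 ± 0.09 but stayed 1.91 ± 0.09 below parental.

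Cadherin genes rose in most calls. CDH1, which encodes E-cadherin, read 2735, 3101 and 2739 in the inhibitor group, against 748, 731 and 660.1 in the resistant group and rose by 2.00 ± 0.12. CDH3, which encodes P-cadherin, read 1229.6, 1539 and 1401 in the inhibitor group, against 282, 307 and 292 in the resistant group and rose by 2.24 ± 0.14 (adjusted p = 4.52e-10). CDH6, a cadherin of kidney development, read 591, 505 and 563 in the inhibitor group, against 132, 132 and 132 in the resistant group, where parental cells had 108 ± 2.65, and rose by 2.06 ± 0.08 (adjusted p = 8.61e-13). CDH2, which encodes N-cadherin, read 2253, 2001 and 2148 in the inhibitor group, against 2611, 2410.0 and 2478 in the resistant group. Its change of -0.23 ± 0.10 was not called (adjusted p = 0.148, 0.0265 to 0.371 over 19 alternatives, the lowest with a variance prior without trend). It stayed 1.71 ± 0.10 above parental. CDH11, a mesenchymal cadherin, fell by 0.38 ± 0.11, a call lost without inhibitor replicate 1 or resistant replicate 1 or 3 (over 19 alternatives, adjusted p values of 0.00516 to 0.147). Plakoglobin (JUP), shared by adherens junctions and desmosomes, read 998, 1393 and 1036 in the inhibitor group, against 288, 242 and 242 in the resistant group and rose by 2.14 ± 0.15. The desmosomal cadherin genes DSG2 and DSC2 rose by 1.30 ± 0.09 and 1.00 ± 0.10, whereas DSG1, DSG3, DSG4 and DSC1 of stratified epithelia stayed within background.

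Keratin genes counted 9 higher and 1 lower of 18. KRT19 read 6426, 7635 and 5398 in the inhibitor group, against 1368, 1418 and 1459.7 in the resistant group, in part above the 99th percentile, and rose by 2.18 ± 0.11 (adjusted p = 1.8e-11). KRT7, a simple epithelium keratin, read 4276, 4838 and 3558 in the inhibitor group, against 953, 1051 and 1019.6 in the resistant group and rose by 2.06 ± 0.12. Both exceeded the parental levels of 4222 ± 384 and 1902 ± 240.3. KRT8 and KRT18, the pair of simple epithelia, rose by 0.78 and 0.74 and stood 1.48 and 1.32 above parental. KRT17, a basal and stress keratin, fell by 0.25 ± 0.05 from a resistant mean of 117.

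Of 25 genes for proteases, serpins and protease inhibitors, 12 rose, 0 fell and 13 were not called. SERPINB5 (maspin), an epithelial serpin, read 916, 928 and 767 in the inhibitor group, against 153, 151 and 135 in the resistant group, with a parental level of 107 ± 1.22, and rose by 2.57 ± 0.09 (adjusted p = 3.75e-13). KLK5, a kallikrein protease of epidermis, read 3598, 3713 and 3384 in the inhibitor group, against 628, 563 and 659 in the resistant group and rose by 2.53 ± 0.11 (adjusted p = 2.84e-12). The inhibitor arrays exceeded all 6 others in both genes. ST14 (matriptase) and PRSS8 (prostasin), membrane proteases that act in 1 cascade, rose by 2.15 ± 0.12 and 1.40 ± 0.16, and their inhibitor SPINT1 by 1.33 ± 0.16. CST6, a cystatin, rose by 2.23 ± 0.10. Surface glycoprotein genes counted 12 higher and 1 lower of 24. PROM2, a relative of the stem cell protein prominin, read 1389, 1187 and 1366 in the inhibitor group, against 195, 191 and 211 in the resistant group. MUC20, a membrane mucin, read 516, 556 and 478 in the inhibitor group, against 122, 128 and 123 in the resistant group. They rose by 2.72 and 2.05, without overlap. TSPAN8, a tetraspanin, rose by 1.91 ± 0.11 but remained 1.88 ± 0.11 below parental. PROM1, prominin itself, fell by 0.19 ± 0.06, a call lost without inhibitor replicate 1 or 3 or resistant replicate 1, 2 or 3 (over 19 alternatives, adjusted p values of 0.00257 to 0.154).

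On the mesenchymal side 14 of 26 markers fell and 4 rose. NNMT, a nicotinamide methyltransferase, read 87.3, 82.7 and 88.1 in the inhibitor group, against 903, 988 and 989 in the resistant group, within background on every inhibitor array, and its fall of 3.48 ± 0.08 is understated (adjusted p = 5.57e-16). THY1, a surface glycoprotein of fibroblasts, read 81.8, 86.3 and 84.0 in the inhibitor group, against 406, 431 and 399 in the resistant group and fell by 2.29 ± 0.06. LOX, a collagen crosslinker, read 124, 122 and 117 in the inhibitor group, against 446, 465 and 436 in the resistant group and fell by 1.89 ± 0.07. Parental cells had 83.5 ± 1.38 for THY1 and 119 ± 4.33 for LOX, so both lay far above parental in the resistant group alone. AXL, a receptor kinase linked to EGFR inhibitor resistance, read 2227, 1636 and 1945 in the inhibitor group, against 3939, 4155 and 3286 in the resistant group, a fall of 0.97 ± 0.14 (adjusted p = 4.82e-05) that left it 1.87 ± 0.14 above parental. VIM, the intermediate filament vimentin, fell by 1.24 ± 0.09, and its resistant values of 7188, 7617 and 7890.0 lie in the range that may be compressed. CAV2, NT5E, MSN and PLAUR were the 4 markers that rose, CAV2 by 0.77 ± 0.11 and NT5E, a surface nucleotidase, by 0.59 ± 0.13. The PLAUR call was lost without inhibitor replicate 1 or resistant replicate 1 or 3 (over 19 alternatives, adjusted p values of 0.00211 to 0.0772). FN1 stayed within background on all arrays, so fibronectin could not be followed.

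The fibroblast markers include THY1, already named above, so they are not separate from those genes. Of 10, 4 fell (THY1, LUM, POSTN and FAP) and none rose. Their summed level was 862 to 876 in the inhibitor group, 1459 to 1483 in the resistant group and 849 to 858 in the parental group. PDGFRA, PDGFRB, DCN, COL3A1, COL6A3 and PDPN, the other 6, had group means within background in every group. A sum of 852 would stand for 10 genes at the median of the olfactory receptor rows.

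Collagen genes moved both ways. Of 24, 6 rose, 9 fell and 9 were not called. COL8A1, a short-chain collagen, read 96.0, 92.9 and 96.5 in the inhibitor group, against 1381, 1456 and 1490.0 in the resistant group, and fell by 3.92 ± 0.08 (15.2-fold, adjusted p = 3.09e-16). COL1A2, a chain of fibrillar collagen I, read 90.1, 92.6 and 96.0 in the inhibitor group, against 794, 722 and 837 in the resistant group and fell by 3.08 ± 0.08 (adjusted p = 3.55e-15). COL5A1 and COL11A1, also fibrillar, fell by 1.22 ± 0.15 and 1.38 ± 0.09, and COL12A1, which lies on fibrils, by 1.65 ± 0.09. COL4A1, a chain of basement membrane collagen, read 3312, 3469 and 3171 in the inhibitor group, against 1480.0, 1315 and 1397 in the resistant group and rose by 1.25 ± 0.11 (adjusted p = 1.07e-07). COL17A1, the hemidesmosome collagen, read 987, 531 and 1144 in the inhibitor group, against 214, 208 and 193 in the resistant group, with 1 lower inhibitor array but no overlap. It rose by 2.04 ± 0.20, and by 2.37 without inhibitor replicate 2 (adjusted p = 2.37e-07 and 1.92e-13). COL4A2, COL4A5 and COL4A6 rose by 0.67, 0.46 and 0.27, and COL7A1, the anchoring fibril collagen, by 0.33 with overlapping groups. The COL7A1 call was lost without inhibitor replicate 2 or 3, resistant replicate 1 or 2 or parental replicate 2 or 3 (over 19 alternatives, adjusted p values of 0.00976 to 0.164).

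Of 31 matrix glycoproteins and crosslinkers, 14 fell and 6 rose. The crosslinker LOXL1 read 148, 183 and 155 in the inhibitor group, against 388, 422 and 494 in the resistant group and fell by 1.42 ± 0.10. FBN2 (fibrillin 2) and FBLN2 (fibulin 2), parts of elastic fibres, fell by 1.48 ± 0.10 and 1.63 ± 0.08. LUM, a small leucine-rich proteoglycan, read 94.3, 89.6 and 86.3 in the inhibitor group, against 225, 219.9 and 219 in the resistant group, at background with the inhibitor, and fell by 1.30 ± 0.05. VCAN (versican), EFEMP1 (fibulin 3) and MFAP5 rose by 1.29, 1.01 and 0.62. Among 23 metalloproteinases and inhibitors, 7 rose and 2 fell. MMP7 (matrilysin), an epithelial protease, read 892, 819 and 931 in the inhibitor group, against 165, 165 and 170.0 in the resistant group and rose by 2.40 ± 0.11 (adjusted p = 1.36e-11). TIMP4 rose by 1.34 ± 0.07, and ADAMTS1, a versican-cleaving protease, fell by 1.24 ± 0.07.

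LAMB3 and LAMA3 encode chains of laminin 332, the ligand that anchors epithelial cells to their basement membrane, and both rose. LAMB3 read 1758, 2302 and 1660.0 in the inhibitor group, against 504, 425 and 528 in the resistant group and rose by 1.96 ± 0.14 (adjusted p = 4.66e-09). LAMA3 read 231, 258 and 227 in the inhibitor group, against 126, 134 and 147 in the resistant group and rose by 0.81 ± 0.08. Both stood above parental with the inhibitor, by 2.78 and 1.13. LAMA4, a chain of mesenchymal and vascular laminins, read 226, 213 and 246 in the inhibitor group, against 684, 579 and 592 in the resistant group and fell by 1.44 ± 0.10 (adjusted p = 1.43e-09). In all, 5 of 11 laminin genes rose and 2 fell. The 5 became 3 without resistant replicate 2. LAMA5 was not called without inhibitor replicate 1 or resistant replicate 2 (over 19 alternatives, adjusted p values of 0.00268 to 0.156), and LAMB1 was not called without resistant replicate 1 or 2 (over 19 alternatives, adjusted p values of 0.0034 to 0.156).

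Integrin genes counted 6 higher and 3 lower of 20. ITGA6 and ITGB4 encode the pair that binds laminin 332 in hemidesmosomes. ITGA6 read 938, 1309 and 995 in the inhibitor group, against 453, 369 and 406 in the resistant group and rose by 1.39 ± 0.13 (adjusted p = 1.69e-07). ITGB4 read 486, 1002 and 512 in the inhibitor group, against 169.7, 169 and 176 in the resistant group, with inhibitor replicate 2 far above the other 2 inhibitor arrays. It rose by 1.87 ± 0.18, and by 1.54 without that array (adjusted p = 2.49e-07 and 1.67e-12). ITGA2, a collagen receptor chain, read 2073, 2752 and 2184 in the inhibitor group, against 415, 407 and 421 in the resistant group and rose by 2.49 ± 0.12. ITGB6 and ITGAV, which together bind and activate latent TGFβ, rose by 1.75 ± 0.13 and 1.26 ± 0.13. ITGA5, the fibronectin receptor chain, read 267, 219 and 269.8 in the inhibitor group, against 406, 414 and 355 in the resistant group and fell by 0.64 ± 0.11.

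**Figure D3:**
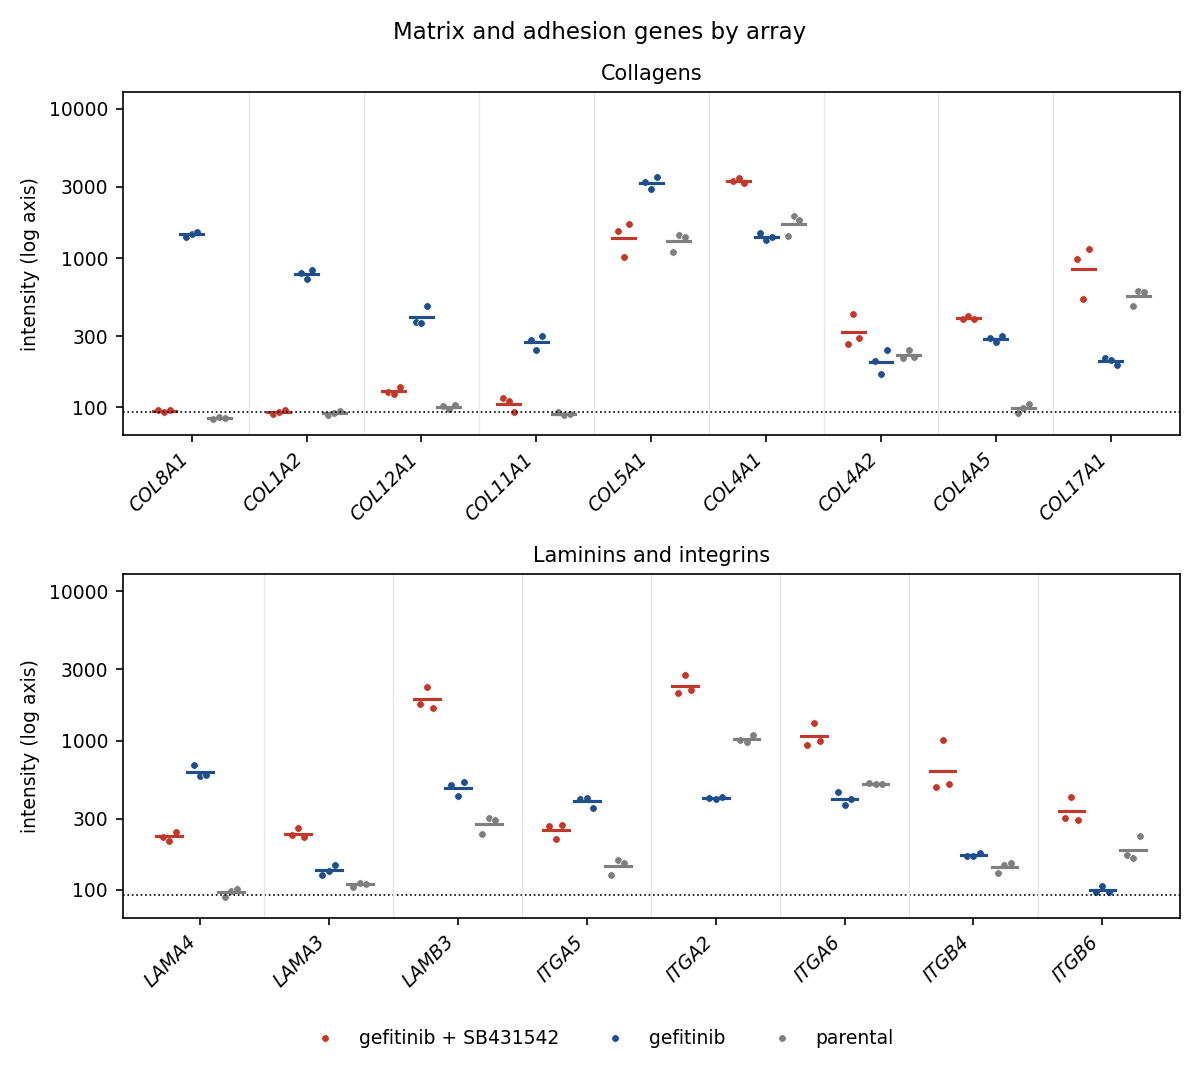
Intensity (log axis) of collagen, laminin and integrin genes on each array, with the inhibitor group left, the resistant group in the middle and the parental group right for each gene. Points are single arrays, bars are group means on the log scale, and the dotted line is the background stand-in of 92.6. COL8A1, COL1A2, LAMA4 and ITGA5 are lower with the inhibitor than in the resistant group, and COL4A1, COL17A1, LAMB3, ITGA2 and ITGB4 are higher.

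Genes of the actin cytoskeleton moved both ways, 8 higher and 8 lower of 33. The 8 became 5 when any 1 resistant array was left out. CNN1 (calponin), a smooth muscle protein, read 83.1, 82.5 and 87.0 in the inhibitor group, against 629, 629.6 and 745 in the resistant group and fell by 2.98 ± 0.08 (adjusted p = 3.55e-15). FLNC (filamin C), an actin crosslinker of muscle, read 669.7, 498 and 640.2 in the inhibitor group, against 3501, 3062 and 3767 in the resistant group and fell by 2.52 ± 0.13, but stayed 2.38 ± 0.13 above parental. MYLK, the myosin light chain kinase, read 221, 336 and 229 in the inhibitor group, against 937, 925 and 898 in the resistant group and fell by 1.84 ± 0.13. The capping and severing proteins CAPG and GSN rose by 1.12 and 0.80. Of 16 targets of the YAP coactivator, 6 fell and 1 rose. CCN1, a matricellular protein, read 539.5, 534 and 425 in the inhibitor group, against 955, 902 and 836 in the resistant group and fell by 0.85 ± 0.12. CRIM1, NUAK2 and TEAD4 fell by 0.77, 0.64 and 0.82, while F3 (tissue factor) rose by 0.81 ± 0.10.

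Interferon-stimulated genes were higher with the inhibitor, 25 of 41 called higher and 4 lower, with a median change of 0.60. IFI27, a mitochondrial interferon-induced protein, read 6022, 5117 and 5559 in the inhibitor group, against 676, 579 and 780.3 in the resistant group. It rose by 3.04 ± 0.11 (8.24-fold, adjusted p = 3.19e-13), with the highest values in the range that may be compressed. EPSTI1, a macrophage and epithelial interferon-induced gene, read 1072, 824 and 932 in the inhibitor group, against 329.6, 292 and 335 in the resistant group and rose by 1.56 ± 0.11. SAMD9, an antiviral factor, read 673, 597 and 577 in the inhibitor group, against 251, 234 and 261 in the resistant group and rose by 1.31 ± 0.10. These 2 stood 2.67 and 1.60 above parental. The RNA sensors OAS2 and OAS3 rose by 1.78 ± 0.16 and 1.49 ± 0.14, and IFI44L by 1.29 ± 0.11. The 4 that fell were HERC5, an ISG15 ligase, the antiviral membrane proteins IFITM2 and IFITM3, and OASL. HERC5 read 638, 495 and 617 in the inhibitor group, against 970.0, 842 and 826 in the resistant group and fell by 0.60 ± 0.12 (adjusted p = 0.00174). IFITM2 read 3190.0, 2882 and 2971 in the inhibitor group, against 4359, 4312 and 3891 in the resistant group and fell by 0.47 ± 0.09.

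Interferon acts on many of these genes through a repeated element, here written GAAANNGAAA, or TTTCNNTTTC on the other strand. The promoters of 2 members that rose and of 1 that fell are printed to show that both kinds carry these letters. They are RefSeq sequences of build GRCh38.p14, from 250 bases before to 50 bases after the start, with the matches in capitals. IFI27 (chr14:94110486-94110785, plus strand) has 2 matches, IFI44L (chr1:78620198-78620497, plus strand) has 2, and HERC5 (chr4:88456869-88457168, plus strand) has 3, of which 2 overlap.
IFI27: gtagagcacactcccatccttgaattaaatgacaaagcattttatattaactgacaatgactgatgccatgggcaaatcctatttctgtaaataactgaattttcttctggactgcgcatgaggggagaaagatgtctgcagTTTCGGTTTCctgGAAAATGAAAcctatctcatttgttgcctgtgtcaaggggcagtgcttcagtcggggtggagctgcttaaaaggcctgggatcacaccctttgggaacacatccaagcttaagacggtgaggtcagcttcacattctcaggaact
IFI44L: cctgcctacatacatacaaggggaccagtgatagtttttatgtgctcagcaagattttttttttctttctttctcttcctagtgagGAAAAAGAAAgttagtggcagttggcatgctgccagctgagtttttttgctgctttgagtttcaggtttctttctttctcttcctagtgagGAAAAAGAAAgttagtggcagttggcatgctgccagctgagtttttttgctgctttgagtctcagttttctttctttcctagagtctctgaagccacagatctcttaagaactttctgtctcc
HERC5: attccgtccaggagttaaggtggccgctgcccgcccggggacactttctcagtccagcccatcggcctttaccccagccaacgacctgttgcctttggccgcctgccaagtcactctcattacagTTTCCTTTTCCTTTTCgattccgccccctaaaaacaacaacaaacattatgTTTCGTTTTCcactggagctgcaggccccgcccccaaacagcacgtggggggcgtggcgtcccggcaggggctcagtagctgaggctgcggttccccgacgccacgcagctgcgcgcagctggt

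The element was found in 3.65% of all 27305 promoters in the table. It was in 16 of the 21 promoters found for the 25 interferon-stimulated genes that rose, in both of the 2 found for the 4 that fell and in 5 of the 10 found for the 12 that were not called. The list was chosen as interferon-stimulated genes, so these shares describe the list.

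Of 31 genes of the pathway itself, 10 rose and 2 fell. IRF9, the DNA-binding subunit of the interferon-activated complex, read 1792, 1636 and 1416 in the inhibitor group, against 744, 824 and 890.1 in the resistant group and rose by 0.98 ± 0.12 (adjusted p = 5.08e-06). RIGI and IFIH1, cytosolic sensors of viral RNA, rose by 0.73 ± 0.07 and 0.55 ± 0.12, and IRF7 by 0.79 ± 0.14. JAK1, a kinase of the receptor, fell by 0.59 ± 0.11.

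Antigen presentation genes gave few calls in class I, while the calls in class II were all falls. In the class I list 3 of 20 genes rose and 2 fell. Among the 19 class I genes above background in either group, 3 rose and 2 fell, where 16.5% and 16.9% of all such genes did. These counts do not set the class I list apart. The peptide transporter TAP2 and HLA-C rose by 0.43 and 0.45. The proteasome subunits PSMB9 and PSMB10 fell by 0.28 and 0.41. The PSMB9 call was lost without inhibitor replicate 2 or resistant replicate 2 or 3 (over 19 alternatives, adjusted p values of 0.0068 to 0.114). The PSMB10 call was lost without inhibitor replicate 2 or resistant replicate 1, 2 or 3 (over 19 alternatives, adjusted p values of 0.00814 to 0.119). In the class II list 0 of 12 rose and 5 fell. HLA-DPA1, a chain of the class II molecule HLA-DP, read 87.6, 89.1 and 92.2 in the inhibitor group, against 314, 333 and 327 in the resistant group, where the inhibitor arrays lay within background. It fell by 1.86 ± 0.09 (adjusted p = 8.35e-12) and lay below the parental 353 ± 29.4. CD74, the invariant chain that guides class II molecules, read 365, 498 and 325 in the inhibitor group, against 788, 889.7 and 851 in the resistant group and fell by 1.11 ± 0.14 (adjusted p = 6.53e-06). HLA-DRA fell by 1.11 ± 0.11, and the peptide loaders HLA-DMB and HLA-DMA by 0.76 and 0.50. Against parental cells the changes with the inhibitor were -1.97 for HLA-DPA1, -1.90 for CD74, -1.60 for HLA-DRA, -1.63 for HLA-DMB and -1.34 for HLA-DMA. All 5 thus lay below both other groups. CIITA, the class II coactivator, was within background on most arrays (87.0, 85.8 and 88.0 with the inhibitor and 83.6, 94.1 and 89.4 without it) and was not called. Class II genes are also known from leukocytes. The summed level of 12 leukocyte markers was 2029 to 2510.4 in the inhibitor group, 2489.7 to 2584 in the resistant group and 2405 to 2531 in the parental group, with 1 marker (CD68) called lower and 8 within background in every group. The part of other cells in the class II result was not tested.

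**Figure D4:**
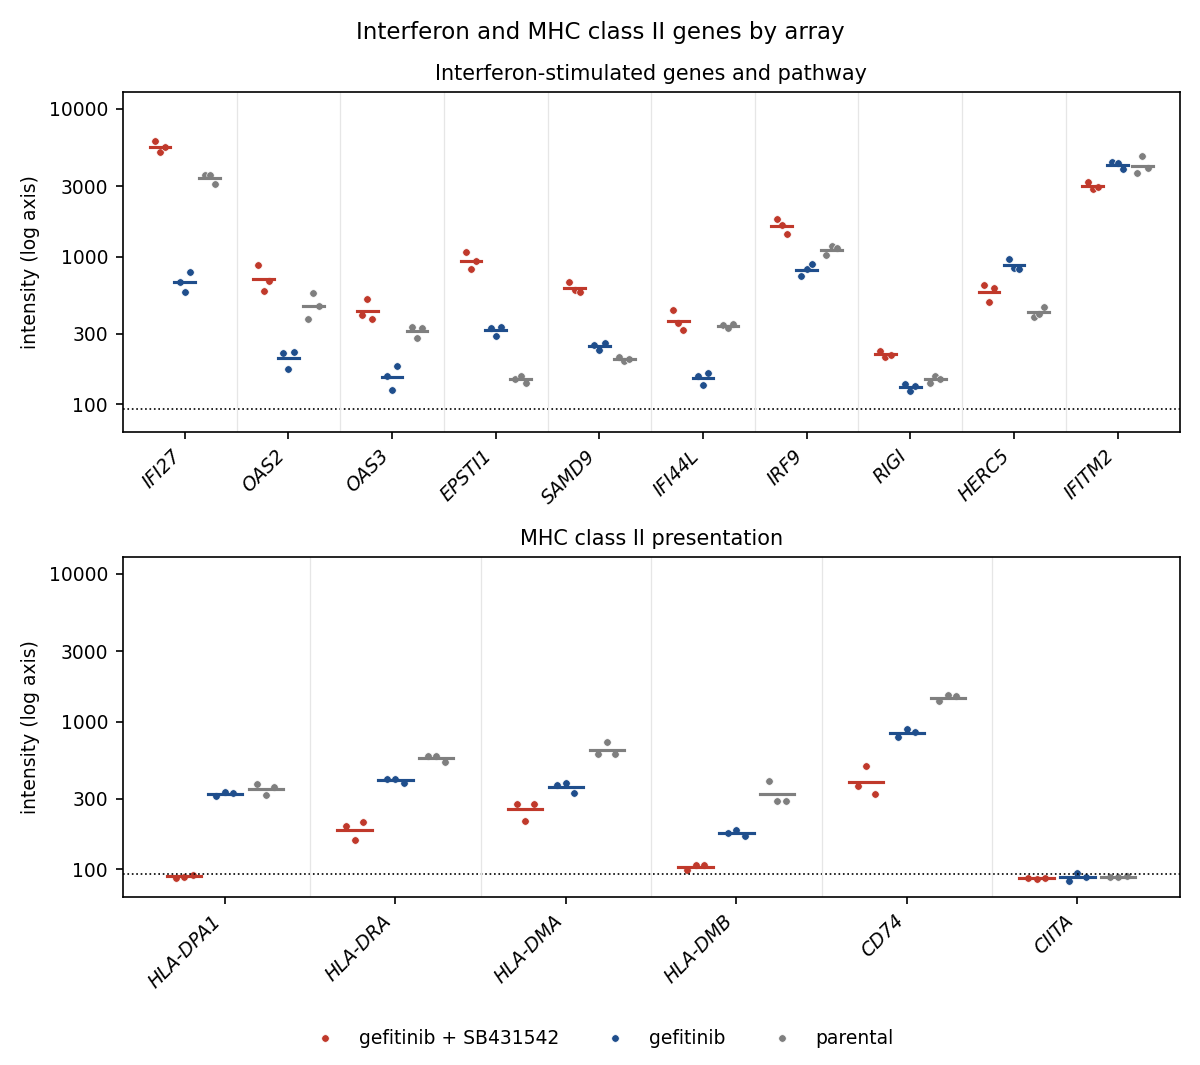
Intensity (log axis) of interferon and MHC class II genes on each array, with the inhibitor group left, the resistant group in the middle and the parental group right for each gene. Points are single arrays, bars are group means on the log scale, and the dotted line is the background stand-in of 92.6. IFI27, OAS2, OAS3, EPSTI1, SAMD9, IFI44L, IRF9 and RIGI are higher with the inhibitor than in the resistant group, HERC5 and IFITM2 are lower, and HLA-DPA1, HLA-DRA, HLA-DMA, HLA-DMB and CD74 are lower than in both other groups.

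Of 33 chemokine and cytokine genes, 7 rose and 9 fell. ACKR3, a scavenging receptor for CXCL12, read 106, 98.7 and 98.6 in the inhibitor group, against 1057, 1190.2 and 1213 in the resistant group and fell by 3.51 ± 0.08 (11.4-fold, adjusted p = 1.71e-15). CXCL12, its ligand, read 86.1, 85.1 and 88.4 in the inhibitor group, against 185, 188 and 198 in the resistant group and fell by 1.14 ± 0.05. IL11, a cytokine that TGFβ induces in stromal cells, read 242, 211 and 239 in the inhibitor group, against 641, 741 and 638 in the resistant group, a fall of 1.54 ± 0.10 that left it 1.14 ± 0.10 above parental. These 3 genes were called lower, and ACKR3 and CXCL12 lay close to or within background with the inhibitor. CXCL16, a membrane-bound chemokine, read 2029, 1300.4 and 1844 in the inhibitor group, against 522, 476 and 436 in the resistant group and rose by 1.83 ± 0.14. CX3CL1, also membrane-bound, read 431, 243 and 486 in the inhibitor group, against 134, 112 and 114 in the resistant group and rose by 1.63 ± 0.19, still 1.86 ± 0.19 below parental. TNFSF10 (TRAIL), a death ligand, read 955, 1007 and 893 in the inhibitor group, against 311, 325 and 360.4 in the resistant group and rose by 1.52 ± 0.11. CXCL8, a neutrophil chemokine, rose by 0.41 ± 0.13 with overlapping groups and remained 2.15 ± 0.13 below parental. The CXCL8 call was lost without inhibitor replicate 1 or 3 or resistant replicate 2 or 3 (over 19 alternatives, adjusted p values of 0.000912 to 0.204).

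Receptors and ligands of the EGFR family were partly higher. Of 16, 5 rose and 2 fell. TGFA, an EGFR ligand, read 759.6, 996 and 796 in the inhibitor group, against 281, 273 and 306 in the resistant group and rose by 1.56 ± 0.12 (adjusted p = 9.22e-09). ERBB2 read 604, 514 and 623 in the inhibitor group, against 295, 282 and 271 in the resistant group and rose by 1.03 ± 0.12. ERBB3, which signals as a partner of ERBB2, read 349, 227 and 367 in the inhibitor group, against 131, 137 and 119.7 in the resistant group and rose by 1.25 ± 0.14, still 1.28 ± 0.14 below parental. EGFR itself read 557, 611 and 534 in the inhibitor group, against 429, 422 and 484 in the resistant group, a rise of 0.35 ± 0.12 (adjusted p = 0.0472). The EGFR call did not hold without inhibitor replicate 1, 2 or 3, resistant replicate 1, 2 or 3 or parental replicate 2 (over 19 alternatives, adjusted p values of 0.024 to 0.176). LRIG1, a negative regulator of these receptors, read 90.8, 99.5 and 91.3 in the inhibitor group, against 204, 213 and 217 in the resistant group, a fall of 1.17 ± 0.08 (adjusted p = 1.28e-09) to below the parental 252 ± 20.1. HBEGF, another EGFR ligand, fell by 0.76 ± 0.07.

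Feedback and output genes of the ERK pathway, downstream of EGFR, counted 11 higher and 3 lower of 20. SPRY1, a feedback inhibitor, read 509, 513 and 516 in the inhibitor group, against 172, 147 and 163 in the resistant group and rose by 1.68 ± 0.11, far short of the parental 1827 ± 137. The ERK phosphatase DUSP6 read 2219, 3251 and 2003 in the inhibitor group, against 671, 616 and 741 in the resistant group and rose by 1.85 ± 0.14, also below the parental 4171 ± 237. MYC and FOSL1, transcription factors, fell by 0.99 ± 0.12 and 0.49 ± 0.09, and EGR1 by 0.44 ± 0.12. The EGR1 call was lost without resistant replicate 1 (over 19 alternatives, adjusted p values of 0.00338 to 0.129). In the AP-1 and immediate early list 6 of 20 fell and 4 rose. JUN read 675, 444 and 534 in the inhibitor group, against 1128, 1053 and 1115 in the resistant group and fell by 1.02 ± 0.14. FOSL2 and FOSB fell by 0.51 and 0.54, and KLF6 and JUNB rose by 0.58 and 0.68.

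Other receptors that can carry growth signals past EGFR, listed with ligands and binding proteins, showed 6 rises and 8 falls among 30 genes. KIT, a receptor kinase, read 449, 509 and 390.4 in the inhibitor group, against 208, 197 and 206 in the resistant group and rose by 1.14 ± 0.12. KITLG, its ligand, read 532, 657 and 437 in the inhibitor group, against 225, 215 and 224 in the resistant group and rose by 1.27 ± 0.13. Receptor and ligand were thus both higher. MET, the hepatocyte growth factor receptor, read 1816, 2765 and 1629.7 in the inhibitor group, against 1157, 944 and 1305 in the resistant group and rose by 0.84 ± 0.16 (adjusted p = 0.00069). IGFBP4 and IGFBP6, binding proteins for insulin-like growth factors, fell by 1.42 ± 0.10 and 0.97 ± 0.08, and IGFBP3 and IGFBP7 rose by 0.45 and 0.44. The IGFBP3 call was lost without inhibitor replicate 1 or resistant replicate 1 (over 19 alternatives, adjusted p values of 0.00333 to 0.0883), and the IGFBP7 call without resistant replicate 1 (over 19 alternatives, adjusted p values of 0.00221 to 0.0607).

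Among Eph receptors and ephrins, contact-dependent guidance signals, 7 of 18 rose and 3 fell. The 3 became 1 without inhibitor replicate 2, resistant replicate 1 or resistant replicate 3. EFNB2 read 586, 539 and 570.5 in the inhibitor group, against 259, 287 and 265 in the resistant group and rose by 1.06 ± 0.09 (adjusted p = 7.87e-08). EPHA1 read 166, 168 and 158 in the inhibitor group, against 97.4, 85.2 and 94.0 in the resistant group and rose by 0.83 ± 0.07. Of 20 Notch genes 8 rose and 3 fell. The receptor gene NOTCH3 read 211, 209.6 and 210.3 in the inhibitor group, against 91.9, 92.2 and 94.0 in the resistant group, close to background without the inhibitor, and rose by 1.18 ± 0.08 (adjusted p = 1.04e-09). The ligands JAG1 and JAG2 rose by 0.63 and 0.60 and the target HES1 by 0.67, while NOTCH1 fell by 0.55 ± 0.14. The NOTCH1 call was lost without resistant replicate 1 or 3 (over 19 alternatives, adjusted p values of 0.00137 to 0.156). WNT genes split, with 5 of 34 higher and 6 lower. Among the 24 above background in either group, 5 rose and 6 fell, where 16.5% and 16.9% of all such genes did. The ligand WNT7A read 229, 306 and 219 in the inhibitor group, against 88.4, 95.2 and 87.5 in the resistant group and rose by 1.46 ± 0.09, and the receptors FZD2 and ROR2 fell by 0.94 ± 0.10 and 0.88 ± 0.07.

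Of 26 mitotic genes, 11 fell with the inhibitor, 0 rose and 15 were not called, with a median change of -0.33. CENPF, a kinetochore protein, read 513, 453 and 508 in the inhibitor group, against 1114, 1034 and 950.3 in the resistant group and fell by 1.07 ± 0.12 (adjusted p = 2.59e-06). CCNB1, the mitotic cyclin B, read 636, 701 and 636 in the inhibitor group, against 1192, 1225 and 1201 in the resistant group and fell by 0.88 ± 0.11. PTTG1 (securin), which holds back the separation of sister chromatids, read 2406, 1862 and 2906 in the inhibitor group, against 4595, 4411 and 4318 in the resistant group. PTTG1 fell by 0.92 ± 0.12. CDC20, which starts anaphase, read 3911, 1931 and 3829 in the inhibitor group, against 5269, 5685 and 5387 in the resistant group, with inhibitor replicate 2 far below the others of its group. Its change was -0.83 ± 0.17, and -0.49 without that array (adjusted p = 0.00186 and 2.51e-05). Against parental cells the changes with the inhibitor were 0.20 for CENPF, -0.14 for CCNB1 and -0.36 for PTTG1, and none of these 3 was called.

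Of 28 replication genes, all above background in either group, 3 rose and 3 fell, where 16.5% and 16.9% of all such genes did. The rises became 1 without resistant replicate 3, and the falls became 1 without resistant replicate 1 or 2. PCNA, the sliding clamp, read 4500.0, 5288 and 4535 in the inhibitor group, against 2813, 2787 and 3093 in the resistant group and rose by 0.72 ± 0.09. Of 19 genes of G1 control, 4 rose and 4 fell. Among the 17 above background in either group, 4 rose and 4 fell, where 16.5% and 16.9% of all such genes did. CDKN1A, the p21 kinase inhibitor, read 1816, 1257 and 1945 in the inhibitor group, against 684, 694 and 708 in the resistant group and rose by 1.24 ± 0.14 (adjusted p = 2.52e-06). CCND1, cyclin D1, read 7352, 6754 and 7057 in the inhibitor group, against 4066, 4026 and 4081 in the resistant group, all 3 inhibitor arrays being above the 99th percentile, and rose by 0.80 ± 0.07. In the BCL2 family 4 of 16 genes rose and 2 fell. Among the 15 above background in either group, 4 rose and 2 fell, where 16.5% and 16.9% of all such genes did. BCL2L1, which blocks apoptosis, read 2118, 3658 and 1844 in the inhibitor group, against 1152, 1180.0 and 1358 in the resistant group and rose by 0.98 ± 0.18 (adjusted p = 0.000466). BAX, which promotes it, read 175, 176 and 179 in the inhibitor group, against 271, 309 and 283 in the resistant group and fell by 0.70 ± 0.08 (adjusted p = 4.03e-06). BMF, a proapoptotic BH3 protein, rose by 0.49 ± 0.07.

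Metabolic lists differed in the direction of their calls. Of 24 cholesterol genes 6 fell and 0 rose. Without inhibitor replicate 2 or resistant replicate 3, 1 rose. NSDHL, a sterol dehydrogenase, read 955, 623 and 974 in the inhibitor group, against 1381, 1504 and 1305 in the resistant group and fell by 0.74 ± 0.15 (adjusted p = 0.00112). INSIG1, which holds the sterol sensor in the endoplasmic reticulum, read 1072, 1002 and 1096 in the inhibitor group, against 1449, 1730.0 and 1645 in the resistant group and fell by 0.60 ± 0.12. FDPS, which makes farnesyl diphosphate, fell by 0.55 ± 0.12. In the glycolysis and hypoxia list 7 of 30 rose and 4 fell, and the 4 became 2 without resistant replicate 2. All 30 lay above background in either group, where 16.5% of all such genes rose and 16.9% fell. SLC2A3 (the glucose transporter GLUT3) read 89.7, 88.8 and 98.6 in the inhibitor group, against 419, 374 and 408 in the resistant group and fell by 2.12 ± 0.07 (adjusted p = 6.97e-14). CA12, a surface carbonic anhydrase, read 139.9, 102 and 133 in the inhibitor group, against 483, 588 and 492 in the resistant group and fell by 2.07 ± 0.11. PFKFB3, which raises the activator of glycolysis, read 2456, 2222 and 2425 in the inhibitor group, against 1083, 1055 and 1031 in the resistant group and rose by 1.16 ± 0.12. Of 22 genes of the ATF4 and unfolded protein response 7 rose and 0 fell, led by the pseudokinase TRIB3 (0.91 ± 0.12), and 1 was lower without inhibitor replicate 2 or parental replicate 1.

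Enzymes of aldehyde, steroid and lipid mediator metabolism gave some of the larger single changes. ALDH1A3, a retinaldehyde dehydrogenase, read 5508, 5443 and 5305 in the inhibitor group, against 1552, 1315 and 1498 in the resistant group and rose by 1.90 ± 0.09 (adjusted p = 2.39e-11). ALDH3A1, which clears lipid aldehydes, read 197, 184 and 213 in the inhibitor group, against 597, 647 and 516 in the resistant group, a fall of 1.56 ± 0.12 further from the parental 1189 ± 57.1. Of 14 aldehyde dehydrogenases 2 rose and 4 fell. AKR1C3, an aldo-keto reductase of steroids and prostaglandins, read 99.1, 93.9 and 89.2 in the inhibitor group, against 482, 496 and 508 in the resistant group and fell by 2.40 ± 0.07 (adjusted p = 1.84e-14). In the NRF2 and detoxification list, 5 of 23 rose, among them the exporter ABCC3 (1.14 ± 0.14), and 5 fell. PTGS2, the inducible cyclooxygenase, read 3016, 2936 and 2900.0 in the inhibitor group, against 644, 732 and 690.3 in the resistant group and rose by 2.10 ± 0.10 (adjusted p = 1.53e-11). PTGS1, the constitutive form, read 89.2, 86.6 and 89.0 in the inhibitor group, against 138, 143 and 132 in the resistant group and fell by 0.64 ± 0.05 to background. ALOX5, the first enzyme of leukotriene synthesis, read 914, 524 and 984 in the inhibitor group, against 204, 198 and 189 in the resistant group, with 1 lower inhibitor array, and rose by 1.98 ± 0.16 (2.27 without inhibitor replicate 2). HPGD, which breaks prostaglandins down, rose by 0.97 ± 0.11 but stayed 2.73 ± 0.11 below parental.

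Of 10 metallothionein genes, which bind zinc and copper, 6 fell and 0 rose. The 6 became 3 without resistant replicate 2. MT1E read 3731, 3111 and 3964 in the inhibitor group, against 4902, 5185 and 4761 in the resistant group and fell by 0.47 ± 0.08. MT1H read 159.8, 136 and 162 in the inhibitor group, against 225, 225 and 220.2 in the resistant group and fell by 0.56 ± 0.09. The family shares sequence closely, so how the probes divide its members is uncertain. Of 17 S100 genes 5 rose and 3 fell. S100A3 read 176, 144 and 188 in the inhibitor group, against 466, 449 and 482 in the resistant group and fell by 1.47 ± 0.10. S100A9, an alarmin of myeloid cells and stressed epithelia, fell by 1.20 ± 0.07, and S100A16 rose by 1.11 ± 0.11.

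Lung lineage genes differed in how near they came to parental levels. Of 24, 8 rose and 2 fell. TCN1, a cobalamin carrier, read 1378, 1342 and 1580.3 in the inhibitor group, against 134, 134 and 131 in the resistant group and rose by 3.43 ± 0.11 (10.7-fold, adjusted p = 5.55e-14), to about the parental 1142 ± 46.0. HOPX, a marker of alveolar type 1 cells, read 182, 205 and 196 in the inhibitor group, against 99.0, 101 and 108 in the resistant group and rose by 0.92 ± 0.10, but parental cells had 2509 ± 191. MGP, the matrix Gla protein, read 1139.5, 1040.2 and 1116 in the inhibitor group, against 325, 383 and 380.4 in the resistant group and rose by 1.60 ± 0.10, against a parental 7476 ± 247. SCGB3A1, a secretoglobin gene of airway secretory cells, read 83.7, 82.1 and 79.4 in the inhibitor group, against 109.9, 114 and 115 in the resistant group and fell by 0.47 ± 0.09, where parental cells had 3766 ± 67.8. SOX2, an airway progenitor factor, read 92.5, 85.5 and 90.6 in the inhibitor group, against 143, 143 and 161 in the resistant group, a fall of 0.73 ± 0.10 to background. SOX2 lay at -1.83 in the inhibitor group and at -1.10 in the resistant group on the log2 scale relative to the parental 322 ± 55.6. HOPX, MGP, SCGB3A1 and SOX2 thus all stayed far below parental with the inhibitor.

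The contrasts with parental cells share the inhibitor or the resistant arrays with the main contrast, so they are given only side by side. Against parental cells 14.9% of genes were called with the inhibitor and 20.5% in the resistant group. Some genes lay outside both other groups with the inhibitor, and 10 are named, chosen by the smaller of their 2 changes. ISL1, a LIM homeobox factor, read 748, 603 and 694 in the inhibitor group, against 144, 140.3 and 144 in the resistant group, with a parental level of 175 ± 6.64. It rose by 2.25 ± 0.10 against the resistant group and stood 1.95 ± 0.10 above parental (adjusted p = 2.51e-12 and 2.33e-11). MLLT11 read 1454, 1713 and 1401 in the inhibitor group, against 408, 444 and 391 in the resistant group, with a parental level of 293 ± 33.6, a rise of 1.87 ± 0.12. EPDR1 read 245, 242 and 271 in the inhibitor group, against 1540.3, 1431 and 1490.0 in the resistant group, with a parental level of 1733 ± 77.7, a fall of 2.56 ± 0.11 (adjusted p = 2.31e-12). GPNMB, a glycoprotein of lysosomes and melanosomes, read 196, 227 and 177 in the inhibitor group, against 1136, 1115 and 1138 in the resistant group, with a parental level of 798 ± 61.8, a fall of 2.50 ± 0.12. The other 6 were ID2, which was lower, and ITGB4, LAMB3, ALOX5, CDH6 and SERPINB5, which were higher.

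**Figure D5:**
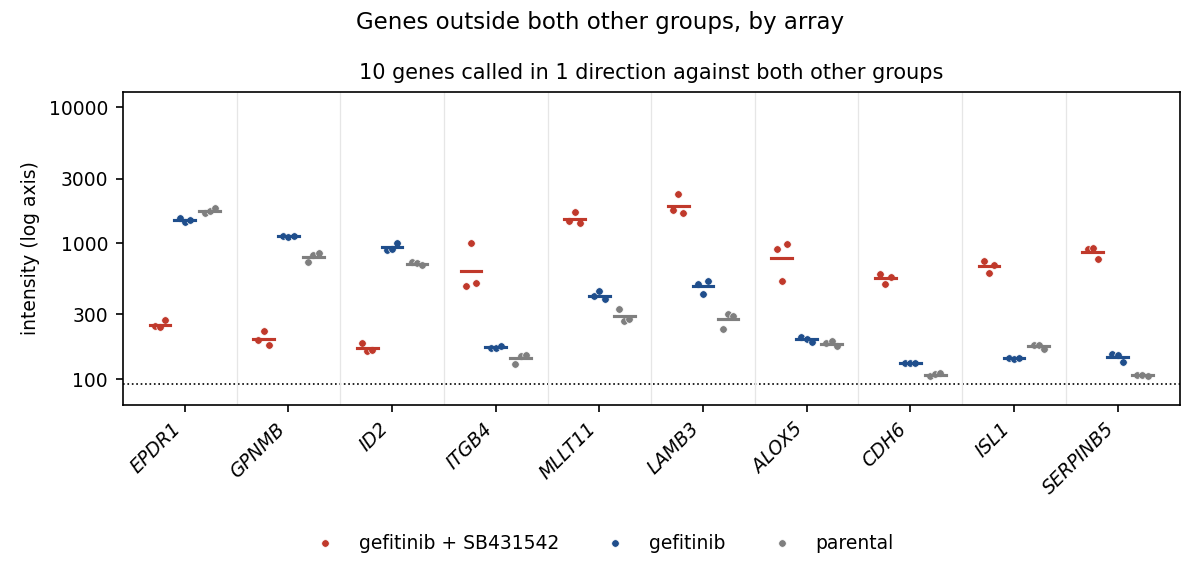
Intensity (log axis) on each array of the 10 genes with the largest change in 1 direction against both other groups, with the inhibitor group left, the resistant group in the middle and the parental group right for each gene. Points are single arrays, bars are group means on the log scale, and the dotted line is the background stand-in of 92.6. EPDR1, GPNMB and ID2 are below both other groups with the inhibitor and the other 7 genes above both.

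Among the 15 largest rises and 15 largest falls, several genes belong to none of the lists. AMPH (amphiphysin), an endocytic protein of neurons, read 88.7, 88.1 and 89.1 in the inhibitor group, against 691, 697 and 626 in the resistant group and fell by 2.92 ± 0.08. DUSP1, a phosphatase of stress kinases, read 312, 248 and 288 in the inhibitor group, against 1697, 1574 and 1764 in the resistant group and fell by 2.57 ± 0.12 (adjusted p = 6.71e-12). PMP22, a tetraspan protein of myelin and epithelia, read 349, 276 and 346 in the inhibitor group, against 2041, 2030.0 and 1922 in the resistant group and fell by 2.63 ± 0.12. CNRIP1, which binds the cannabinoid receptor, fell by 2.72 ± 0.07. ERP27, a chaperone of the endoplasmic reticulum, read 1188, 1144 and 1190.2 in the inhibitor group, against 148, 154 and 162 in the resistant group and rose by 2.93 ± 0.11 (adjusted p = 3.19e-13). ANO1, a calcium-gated chloride channel, read 1188, 1269 and 1105 in the inhibitor group, against 197, 179 and 185 in the resistant group and rose by 2.67 ± 0.11. VTCN1 (B7-H4), which restrains T cells, read 627, 483 and 649.9 in the inhibitor group, against 109.9, 108 and 101 in the resistant group and rose by 2.45 ± 0.12. FOLR1, a folate receptor, read 730.5, 706 and 753 in the inhibitor group, against 138, 134 and 133 in the resistant group and rose by 2.43 ± 0.09 to above the parental 262 ± 14.3. RNASE1, a secreted ribonuclease, rose by 2.75 ± 0.11.

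None of 20 ribosomal protein genes was called, though 1 was higher and 1 lower without inhibitor replicate 3, and 1 lower without resistant replicate 1. Of 10 neuroendocrine markers 2 rose, UCHL1 by 0.36 and DDC, within background, by 0.14, and CHGA, SYP and NEUROD1 stayed within background. Of 10 endothelial markers 2 were called higher, ESAM by 0.39 and CDH5 by 0.14, from levels within background in the resistant group. The CDH5 call was lost without inhibitor replicate 1 or 3, resistant replicate 1 or 2 or parental replicate 1, 2 or 3 (over 18 alternatives, adjusted p values of 0.0115 to 0.25). The summed level of the 10 markers was 888 to 891 in the inhibitor group, 853 to 860.3 in the resistant group and 873 to 888 in the parental group. The macrophage lysosome marker CD68 was the leukocyte marker called, at 987, 1484 and 954 in the inhibitor group, against 1540.3, 1518 and 1407 in the resistant group, with overlap. Its fall of 0.41 ± 0.14 (adjusted p = 0.049) was lost without inhibitor replicate 1 or 3, resistant replicate 1, 2 or 3 or parental replicate 1, 2 or 3 (over 19 alternatives, adjusted p values of 3.9e-05 to 0.212). Among 14 fatty acid synthesis genes 3 rose and 2 fell, and the falls became 1 without inhibitor replicate 1 or 3 or resistant replicate 1 or 2. Among the 13 above background in either group, 3 rose and 2 fell, where 16.5% and 16.9% of all such genes did. SCD, the desaturase, rose by 0.50 ± 0.11, and FASN, the synthase itself, was not called (change 0.10 ± 0.15, adjusted p = 0.761).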

How the data were processed

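Total RNA of 9 HCC4006 samples was amplified to biotinylated cRNA and hybridised to 1-colour Illumina arrays, per the labels' protocols. The deposited series matrix held 34687 rows of linear intensity values that the authors had already normalized. From the values, the arrays had almost the same distribution (each sorted value within 0.0178 log2 of the mean over arrays) and kept their background (lowest value 72.7), so they were used as deposited, in log2. How the authors summarised probes to genes is not given in the sources used here.

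Rows were matched to RefSeq GRCh38.p14 by current symbol (17757), gene number (2669) or older symbol (3303). Another 7688 kept their deposited name, and 3270 UniGene rows were left out, which gave 30672 genes. The brightest row was kept for the 728 genes with several. All 9 arrays entered 1 limma 3.58.1 fit (R 4.3.3, lmFit and eBayes with trend), with Benjamini-Hochberg adjustment over all genes. Tables and figures used Python 3.11.15, pandas 2.3.3, numpy 2.4.6 and matplotlib 3.10.9, and the fit was tested on simulated data.

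Named genes are the 15 largest rises and falls, up to 6 called members of each list and those called against its main direction, all members of lists of 14 or fewer, a set of pathway genes and the 10 outside both groups. The comparison and the lists were chosen with earlier results of these data known. Some genes belong to several lists. The number of arrays limits the precision. The 19 alternatives are each array left out, the 6 arrays alone, the replicate number as a block, array weights, other variance priors, cyclic loess, background subtraction, dim genes left out, row averaging and UniGene rows kept. Results for some genes are not reported here.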

Additional observations from a re-analysis of the deposited data

How the results depend on the processing

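With background subtracted, the genes called higher became 1797 and those called lower 1766. Those higher by 2-fold or more became 814 and those lower by that much 689. No named gene changed direction among called values in any of the 19 alternatives, and 266 of the 341 called named genes stayed called in all of those that tested them. Leaving out 1 array at a time gave 1991 to 2653 genes higher, 2048 to 2709 lower, 315 to 344 higher by 2-fold or more and 199 to 250 lower by that much. The fewest called higher came without resistant replicate 1, and the fewest called lower without resistant replicate 2. Deviations from the group means of same-numbered arrays correlated at 0.028, -0.13 and -0.19, so the numbers were not taken to pair the arrays. With the replicate number as a block, 2462 genes were higher, 2471 lower, 324 higher by 2-fold or more and 223 lower by that much, and of 454 named genes 9 were no longer called. Background subtraction ended 66 named calls, the most of any setting, and it left 1 of 4 BCL2 family, 0 of 3 fatty acid synthesis, 2 of 4 mesenchymal, 4 of 7 metalloproteinase, 3 of 5 laminin, 3 of 5 S100, 0 of 2 endothelial and 1 of 2 neuroendocrine rises. Of falls it left 0 of 3 Notch, 0 of 3 Eph and ephrin, 0 of 2 TGFβ ligand, 0 of 1 TGFβ receptor, 1 of 2 SMAD, 0 of 2 MHC class I, 1 of 3 ERK list, 2 of 4 interferon-stimulated, 1 of 3 DNA replication, 2 of 4 glycolysis, 3 of 6 metallothionein and 0 of 1 leukocyte marker falls. Signal over background limits what could be seen, since the mean level of 48.6% of genes was above 92.6.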
